A study of Rattus norvegicus with 4 samples.

Results

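A set of 9 genes named for the B cell antigen receptor and the B cell surface was followed in the rat small intestine: Cd79a, Cd79b, Blnk, Cd22, Cd72, Cd37, Gpr174, Eaf2 and Mzb1. Of these 9 genes, 7 were found on the arrays by gene name, with 1 probe and 1 spot each, among the names of the 41012 gene probes. Cd79a and Mzb1 were absent under these names. One probe carrying the RefSeq accession that the GRCr8 gene table gives to Mzb1, and one that the scanner files describe as similar to CD79A antigen, were read in their place and are kept apart from the 7 in every count. The set was chosen by gene function and on the compost against control differences of these same arrays, in which most of its members had been seen to be higher in compost rats. Those differences are therefore a description and carry no test.

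A pair of groups of male Wistar rats, an outbred stock, were compared. From 3 weeks of age and for 12 weeks, the drinking water of compost rats held 1.0% (v/v) of a compost extract, while control rats had water alone. The extract was a fermented compost diluted in water and kept at 60 °C for 10 h or longer. Total RNA of the small intestine without Peyer's patches was taken from 2 compost rats and 2 control rats. Each rat's RNA, carrying the dye Cy3, was put on its own one-colour Agilent array. The labels treat the replicates as individual rats and do not say which stretch of the small intestine was taken. All 4 arrays lay on 1 slide, with the compost rats at other positions of it than the control rats, so position and group cannot be told apart. With 2 arrays a group, the number of arrays limits the precision.

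B cells recognise antigen through a membrane immunoglobulin that cannot signal alone. It sits with a pair of signalling chains, CD79A and CD79B, whose phosphorylated tails bring in the kinase SYK, and BLNK then docks the enzymes BTK and PLCG2. CD22 and CD72 are surface receptors that dampen this signal by recruiting the phosphatase SHP-1, which Ptpn6 encodes. In the gut wall B cells gather in lymphoid follicles, and their descendants, the plasma cells, populate the lamina propria and secrete IgA.

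Intensities are given as a percentage of the 75th percentile of all gene probes on the same array, which removes differences in overall brightness (median gene spot 113 and 80.8 intensity units on the compost arrays, 88.4 and 87.2 on the control arrays). The error printed with such a percentage is the one the scanner software gave that spot. A log2 difference is compost minus control, with the standard error (SE) of a limma model fitted to the 28415 probes that the scanner software flagged as clearly above background in 2 arrays or more. All 9 genes were among these. Gpr174 entered through the compost arrays alone, so a difference was built into its selection. None of the 9 spots was saturated on any array, and local background lay between 86 and 102.5 intensity units around them.

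Of the 7 genes matched by name, Cd79b, Cd22, Cd72, Gpr174 and Eaf2 had the compost rats both above the highest control rat, while Blnk and Cd37 overlapped between the groups. The 5 non-overlapping genes stand beside a background of 12.3% of all probes kept. The median log2 difference of the 7 genes was 1.45 (2.73-fold, the value of Cd72), against -0.02 for all probes kept. Cd79b, Gpr174 and Eaf2 kept the nearest arrays of both groups at least 1 log2 unit apart, as did 0.282% of all probes. Over the whole table limma called 0% of probes higher and 0% lower at an adjusted p under 0.05 (400 higher and 513 lower had an unadjusted p under 0.05), so no gene here passed on its own. In whole tissue, more B cells and more RNA per B cell cannot be told apart.

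**Figure D1:**
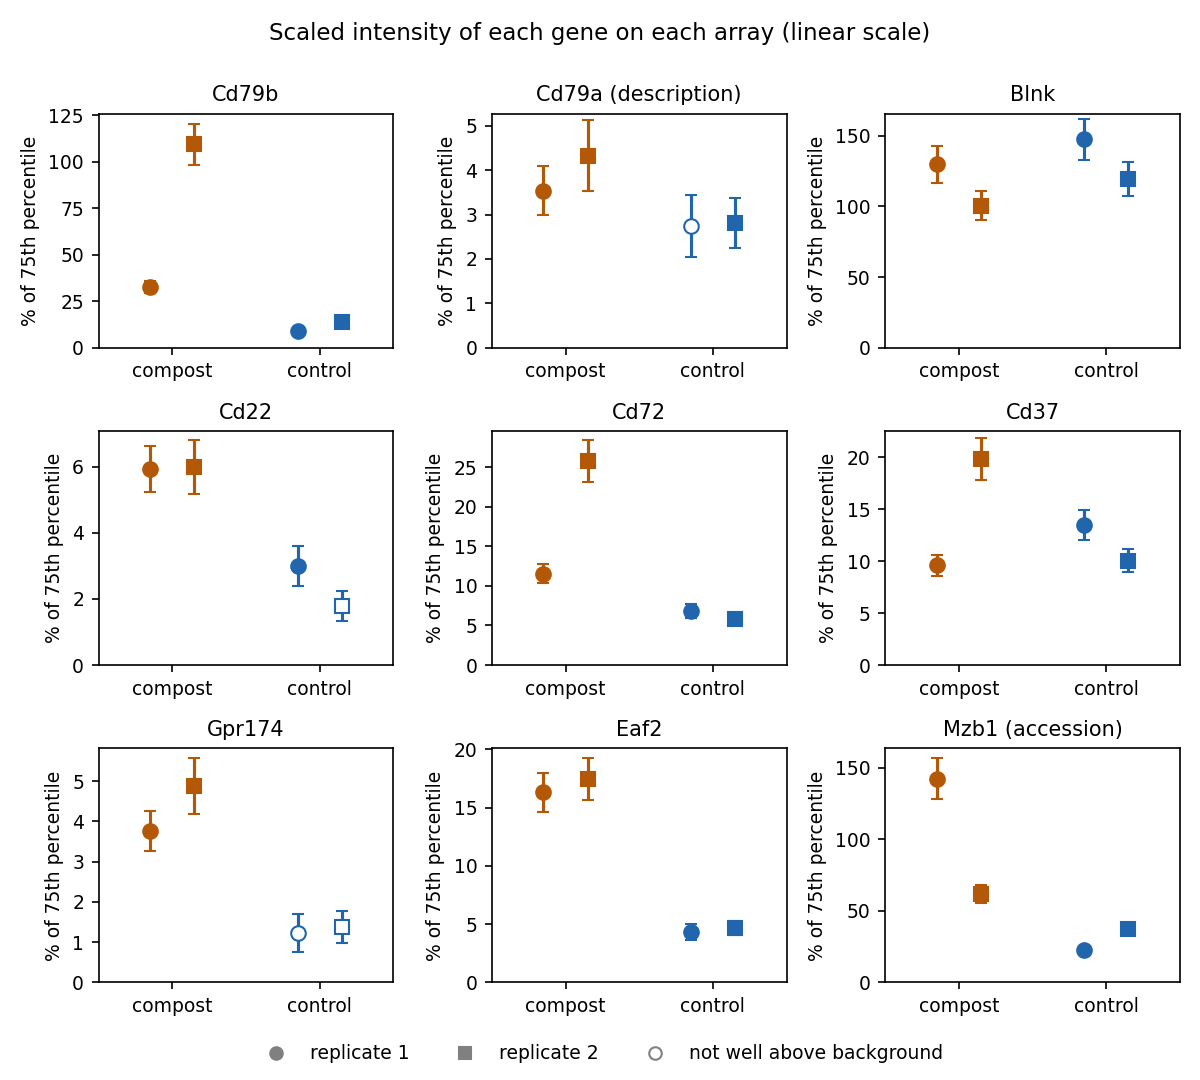
Scaled intensity of each of the 9 genes, in percent of the array's 75th percentile on a linear axis from 0, with compost rats left of control rats. Each point is 1 array, bars are the scanner software's error for the spot, and open points were not well above background. Both compost rats lie above both control rats in every panel but Blnk and Cd37.

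Cd79b, the signalling chain of the receptor also called Ig-beta, stood at 32.5% ± 3.28 and 109% ± 10.9 in compost rats 1 and 2, against 8.82% ± 1.11 and 13.9% ± 1.49 in control rats 1 and 2. The groups did not overlap, and the lower compost rat was 2.33-fold above the higher control rat. Its log2 difference was 2.43 ± 0.64 SE (5.37-fold), and 0.172% of the probes kept had a larger one. The compost rats differed from each other by 1.75 log2 units, so the size rests on compost rat 2: the difference was 1.55 without that rat and 3.30 without compost rat 1.

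The partner chain was read from the probe described as similar to CD79A. It gave 3.54% ± 0.556 and 4.33% ± 0.796 in compost rats, against 2.74% ± 0.696 and 2.81% ± 0.571 in control rats. Control rat 1 was not well above background. The log2 difference was 0.49 ± 0.20 SE, and the software errors of the lower compost spot and the higher control spot overlapped. With normexp background correction, the model-based alternative to the software's own subtraction, the groups overlapped for this probe and the difference was 0.14. The chains of 1 receptor thus had unequal measured differences on these arrays, with the CD79A probe close to the limit of detection. The difference between the 2 probes was not tested.

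Blnk, the adaptor downstream of the receptor, did not separate the groups. It stood at 130% ± 13.0 and 101% ± 10.1 in compost rats, against 147% ± 14.7 and 119% ± 11.9 in control rats. Compost rat 1 lay between the control rats, and the log2 difference was -0.21 ± 0.23 SE. The sign turned, to 0.27, when each array was scaled to the mean of 9 epithelial markers in place of its 75th percentile. That mean includes the lactase gene Lct, which differed by -2.67 and stayed under the detection flag in the compost rats. Whether the sign turns without Lct was not tested. Blnk was well above background on all 4 arrays, and which cells gave its signal was not tested.

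Among the inhibitory receptors, Cd22, a lectin that binds sialic acids, gave nearly the same scaled value in both compost rats, 5.93% ± 0.698 and 5.99% ± 0.815, against 3.00% ± 0.598 and 1.79% ± 0.451 in control rats. Control rat 2 was not well above background. The log2 difference was 1.36 ± 0.30 SE (2.58-fold), and the spread sat in the control rats, which differed by 0.75 log2 units. Cd72, a lectin-like coreceptor of B cells, stood at 11.5% ± 1.21 and 25.8% ± 2.64 in compost rats, against 6.86% ± 0.871 and 5.81% ± 0.720 in control rats. Its control rats lay close together and its compost rats 1.16 log2 units apart. The log2 difference of 1.45 ± 0.43 SE was 0.87 without compost rat 2 and 2.03 without compost rat 1.

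Cd37, a tetraspanin that organises receptors in the B cell membrane, overlapped between the groups. It stood at 9.59% ± 1.02 and 19.8% ± 2.05 in compost rats, against 13.5% ± 1.43 and 10.1% ± 1.08 in control rats. Compost rat 1 was the lowest of the 4 and compost rat 2 the highest. The log2 difference of 0.24 ± 0.41 SE was -0.28 without compost rat 2 and 0.77 without compost rat 1, so 1 rat set its direction.

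Gpr174, a receptor for lysophosphatidylserine on lymphocytes, was dim. Compost rats stood at 3.76% ± 0.504 and 4.88% ± 0.695, against 1.23% ± 0.470 and 1.39% ± 0.396 in control rats. Both control rats were below the software's detection flag, so the dimmest probes detected on each control array were taken as a limit. Against that limit the compost rats were on average 2.07-fold higher for Gpr174, and 1.82-fold without compost rat 2. The limit is not strict. The CD79A probe of control rat 1 was unflagged at a scaled log2 value of -5.19, above the dimmest detected there (-5.45). The measured log2 difference was 1.71 ± 0.22 SE. With normexp, whose offset lifts all dim spots, the measured fold was 1.25, so the 2.07-fold holds for the processed intensities alone.

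Eaf2, a cofactor of transcription elongation named for its partner ELL and known from germinal centre B cells in mice, had the smallest standard error of the 9. Compost rats stood at 16.3% ± 1.67 and 17.4% ± 1.84, against 4.33% ± 0.701 and 4.67% ± 0.639 in control rats. The lower compost rat was 3.49-fold above the higher control rat, and rats of 1 group differed by 0.10 log2 units among compost rats and 0.11 among control rats. The log2 difference was 1.91 ± 0.18 SE (3.75-fold) and stayed between 1.85 and 1.96 when any 1 rat was left out.

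Mzb1, a chaperone of the endoplasmic reticulum that helps antibodies assemble, was read from the probe found by accession. It gave 143% ± 14.3 and 62.0% ± 6.22 in compost rats, against 22.7% ± 2.33 and 37.6% ± 3.79 in control rats. The groups did not overlap, but here compost rat 1 was the higher one. The log2 difference of 1.68 ± 0.49 SE was 1.08 without compost rat 1 and 2.29 without compost rat 2. With Mzb1 and the CD79A probe added, 7 of 9 genes had both compost rats on top, and the median stayed at 1.45.

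**Figure D2:**
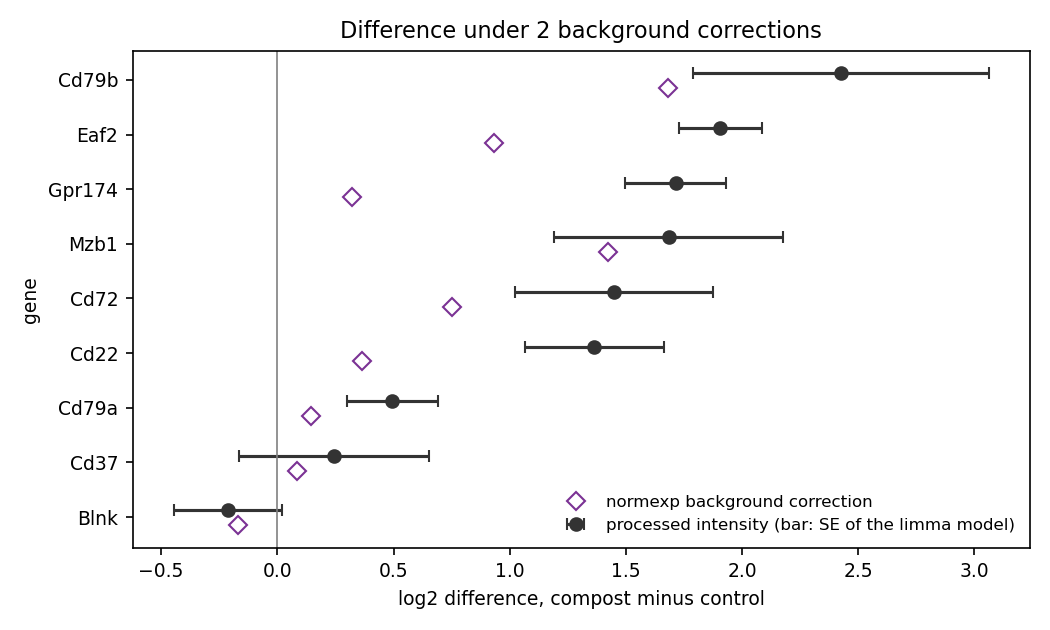
Log2 difference, compost minus control, of the 9 genes with the processed intensity (filled points, bars are the SE of the limma model over 4 arrays) and with normexp background correction (open diamonds). Cd79b and Mzb1 keep 1.68 and 1.42 under normexp, while Cd22 and Gpr174 shrink to 0.37 and 0.32.

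Of the processing alternatives run, normexp background correction moved the median of the 7 genes furthest, to 0.37. The log2 difference was 0.37 for Cd22, 0.32 for Gpr174, 0.75 for Cd72 and 0.93 for Eaf2, against 1.68 for Cd79b. The direction held, with the same 5 genes of 7 having the compost rats on top.

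**Figure D3:**
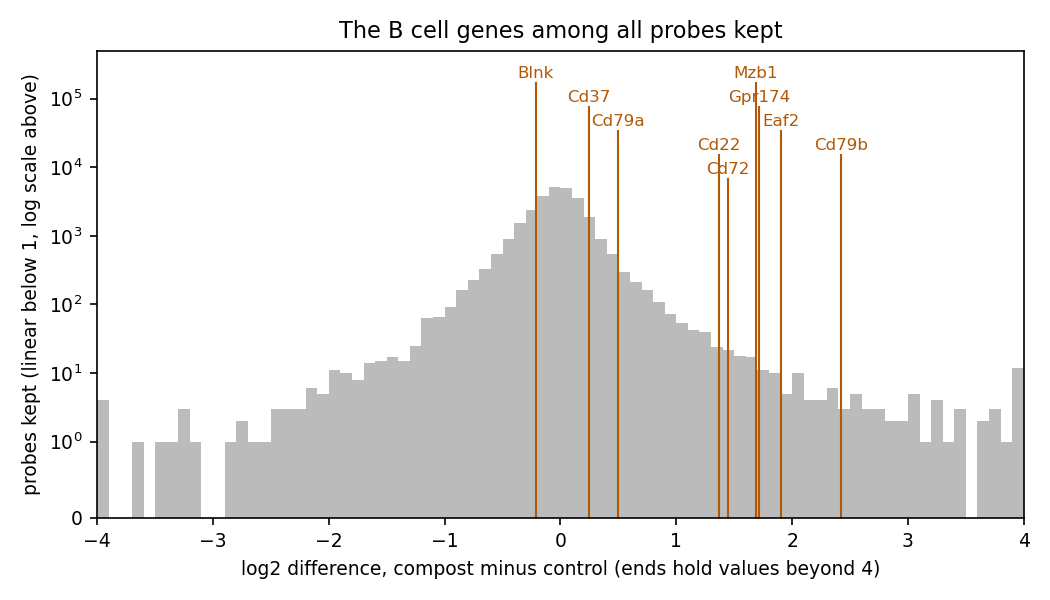
Number of the 28415 probes kept by log2 difference, compost minus control, in bins of 0.1 (vertical axis logarithmic above 1), with the 9 genes marked by lines. Blnk lies within the bulk of probes, and Cd22, Cd72, Mzb1, Gpr174, Eaf2 and Cd79b lie in the upper tail, where fewer than 1% of probes had a larger difference.

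Rats of 1 group were also set against each other, a contrast that did not choose the genes. In compost rats the gap of rat 2 minus rat 1 was positive in 6 of the 7 genes matched by name, with a median of 0.37 log2 units, against 54.9% and 0.05 for all probes kept. The gap was 1.75 for Cd79b, 1.16 for Cd72 and 1.05 for Cd37, but 0.01 for Cd22 and 0.10 for Eaf2. The genes therefore did not share 1 profile over the compost rats. Mzb1 ran the other way at -1.20. Beside it, the plasma cell genes Jchain, the joining chain of polymeric IgA, and Tnfrsf17, the survival receptor BCMA, were also lower in compost rat 2 (log2 values 2.29 against 3.25, and 1.35 against 2.21). Other genes of the B cell surface split, with 4 of 7 higher in compost rat 2, and of the plasma cell genes 2 of 7 were. In control rats the gap of rat 2 minus rat 1 was positive in 3 of the 7 genes, with a median of -0.24, against 55.2% and 0.03 for all probes kept. Each of these contrasts rests on 1 rat a side and has no test.

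**Figure D4:**
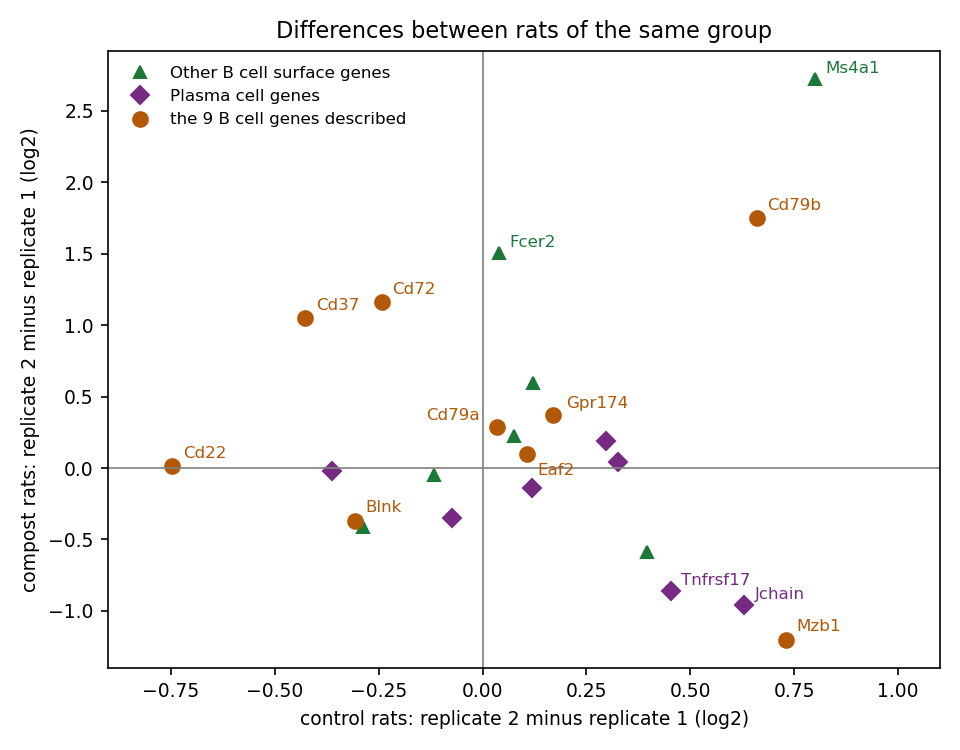
Log2 gap between rat 2 and rat 1 of the compost group (vertical) and of the control group (horizontal) for the 9 B cell genes (circles), other B cell surface genes (triangles) and plasma cell genes (diamonds). Cd79b, Cd72 and Cd37 lie 1.05 to 1.75 above 0 among compost rats, and Mzb1 lies 1.20 below.

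The wider pathway was described through 5 lists of related genes, with 0 members of any of them called by limma. Of 16 measured genes of B cell receptor signalling, 11 were higher and 5 lower in compost rats, 8 with the compost rats both on top and none with them both below, beside 12.3% and 15.6% of all probes kept. Their median log2 difference was 0.17, and 5, all of them higher, had an unadjusted p under 0.05 in limma, as did 1.41% of all probes kept in that direction. The largest were Cr2, the complement receptor of B cells and follicular dendritic cells, Btk, the kinase that BLNK docks (1.28 ± 0.27 SE), and Blk, a kinase of the Src family (0.79 ± 0.25). Cr2 went undetected by the software's flag in both control rats. Its average level in compost rats was 5.28-fold above the dimmest probes detected in control rats (with normexp, 2.39-fold above its own control level). Its log2 values were -5.30 and -1.10 in compost rats 1 and 2. The fold against the dimmest probes rests on compost rat 2, since it was 1.23-fold for Cr2 without that rat. Cr2 entered the fit through the compost arrays alone, so a difference was built into its selection and its place among the 8. Syk differed by 0.13 ± 0.17 and Plcg2 by -0.17 ± 0.21, both given after their values were seen because BLNK links them.

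Inhibitors of the signal did not move together. Of 7 measured, 4 were higher and 3 lower, with a median of 0.02 and 2 genes with both compost rats above, beside 12.3% of all probes kept. The Fc receptor gene Fcgr2b (1.16 ± 0.25 SE), which macrophages also express, and the adaptor gene Dok3 (0.77 ± 0.26) were the largest, while Cd5 differed by -0.26 ± 0.43 and turned to 0.30 without control rat 1. Ptpn6, the phosphatase that CD22 and CD72 recruit, differed by -0.01 ± 0.21 and is given after its value was seen.

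All 7 measured genes of the remaining B cell surface list were higher in compost rats, none of which overlapped between the groups, beside the 12.3% of all probes. Their median was 0.86 (0.52 with normexp). Cd24, among the 7, held 95.8% to 97.0% of their summed level and differed by only 0.19 ± 0.19 SE. Which cells gave the Cd24 signal was not tested. Ms4a1, which encodes CD20, was like Cr2 below the flag in both control rats. Compost rats were on average 2.61-fold above the dimmest probes detected in control rats (with normexp, 1.43-fold above the control level of Ms4a1). It entered the fit through the compost arrays alone, so a difference was built into its selection and its place in this count. Its log2 values were -5.57 and -2.85 in compost rats 1 and 2, so the 2.61-fold for Ms4a1 rests on compost rat 2 and was 1.02-fold without that rat. Ly86, a partner of the receptor RP105, differed by 0.91 ± 0.24 SE, and Cd40, the receptor for T cell help, by 0.87 ± 0.18. Cd180 and Cxcr5 were on the array but too dim to enter the fit.

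B lineage transcription factors were split, with 4 of 6 higher and a median of 0.14 (-0.01 with normexp). Both compost rats were above in 1 of the 6, a share near the 12.3% of all probes kept. Irf4, a factor of plasma cell differentiation, differed by 0.88 ± 0.34 SE, Ebf1, a founding factor of the B lineage, by 0.65 ± 0.44, and Ikzf1 by 0.19 ± 0.49. Without compost rat 1 Irf4 differed by 0.48, without compost rat 2 Ebf1 differed by 0.07, and without control rat 2 Ikzf1 turned to -0.50. Of 7 measured plasma cell genes 6 were higher, 5 with both compost rats above, beside 12.3% of all probes kept, with a median of 0.50. Jchain differed by 1.25 ± 0.41, Tnfrsf17 by 0.95 ± 0.36 and Prdm1, the plasma cell regulator Blimp-1, by 0.68 ± 0.21. Without compost rat 1 Jchain differed by 0.77 and Tnfrsf17 by 0.52.

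**Figure D5:**
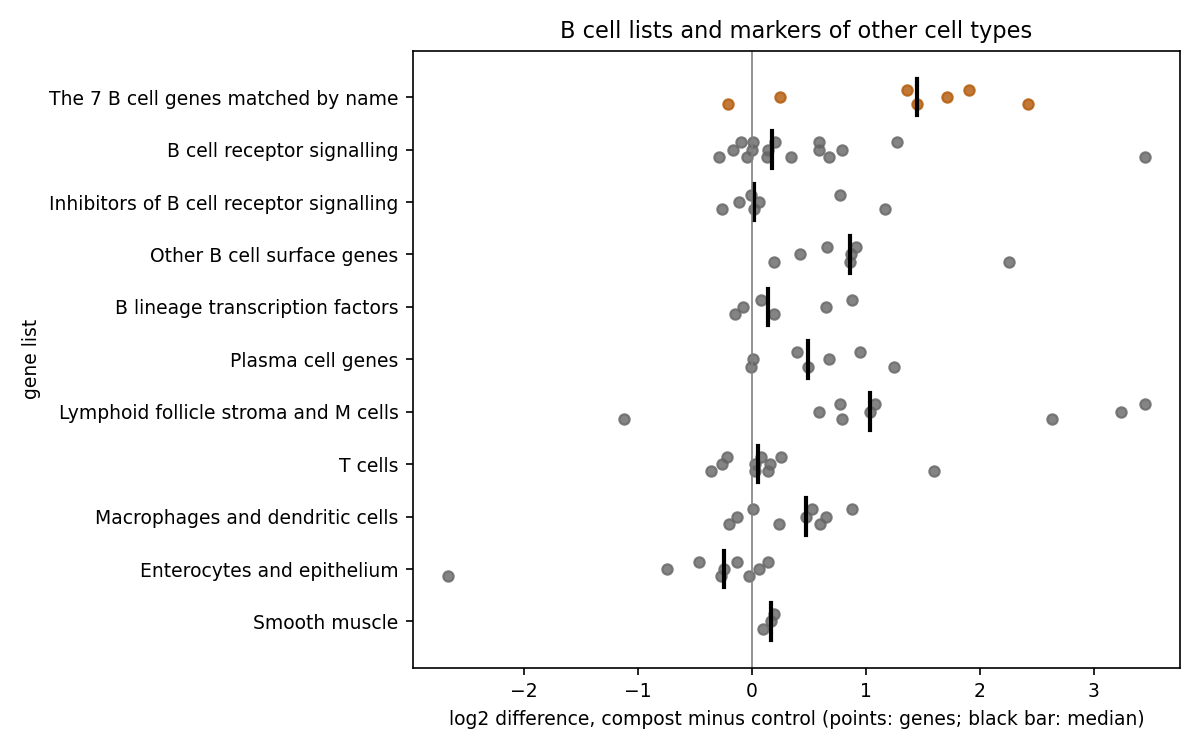
Log2 difference, compost minus control, of each measured gene (points) and the median (black bar) of the 7 B cell genes matched by name, of 5 related lists and of markers of other cell types. The medians are 1.45 for the 7 genes, 1.04 for lymphoid follicle stroma and M cells, 0.06 for T cells and -0.25 for enterocytes and epithelium.

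The tissue was labelled as free of Peyer's patches, and genes of lymphoid follicle stroma and M cells were measured in both groups: 8 of 9 were higher in compost rats, and those 8 did not overlap between the groups, beside 12.3% of all probes kept, with a median of 1.04. Cr2 is counted again among these 8. It entered the fit through the compost arrays alone, so a difference was built into its place here too. The summed level of the 9 was 25.2 and 48.2 in compost rats, against 15.3 and 18.6 in control rats, in units of the array's 75th percentile. The chemokine gene Ccl20 alone made up 52.7% to 61.1% of each sum. Without it the sums were 11.8 and 19.2 in compost rats, against 7.25 and 7.22 in control rats. Cxcl13, a chemokine of follicles that attracts B cells, differed by 3.24 ± 0.30 SE and the T zone chemokine gene Ccl19 by 2.63 ± 1.06 (1.05 without compost rat 2). Gp2, a marker of M cells given after its value was seen, overlapped between the groups, with log2 values of -2.27 and -6.84 in compost rats 1 and 2 against -2.90 and -3.97 in control rats 1 and 2. Gp2 was not well above background in compost rat 2, which alone sets the direction: the difference was -1.12 ± 1.55 SE with that rat and 1.16 without it. The part of follicle content in the B cell differences was not tested.

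Of 10 T cell markers 7 were higher in compost rats, with a median of 0.06, and their summed level overlapped, at 25.6 and 38.6 in compost rats against 43.5 and 22.0 in control rats. Cd2, which was well above background in only 1 control rat, differed by 1.60 ± 0.23 SE. It alone of the 10 had both compost rats above, a share of 10% beside 12.3% of all probes kept. Cd6 differed by -0.36 ± 0.49 (0.06 without compost rat 1 and 0.19 without control rat 1) and Cd5 as given above. Of 9 markers of macrophages and dendritic cells 7 were higher, with a median of 0.48, and their summed level, 299.6 and 219 in compost rats against 240.1 and 332 in control rats, overlapped too. A single lysozyme probe made up 87.7% to 95.0% of each sum, and Paneth cells of the gut also express lysozyme. Without it the sums were 36.9 and 22.1 in compost rats, against 23.8 and 16.5 in control rats. Cd163 differed by 0.88 ± 0.60, Csf1r by 0.65 ± 0.56 and C1qa by 0.60 ± 0.39, with the groups overlapping in all 3 genes. These sizes rest on compost rat 1, without which Cd163 differed by 0.05, Csf1r by -0.15 and C1qa by 0.19. Epithelial markers other than Lct were well above background on all 4 arrays, with 7 of 9 lower in compost rats and a median of -0.25. Their summed level was 1345 and 1696 in compost rats, against 1653 and 1604 in control rats. Lct, which encodes lactase, was below the flag in both compost rats. Control rats were on average 4.01-fold above the dimmest probes detected in compost rats (2.63-fold without control rat 1). With normexp they were 1.72-fold above the compost level of Lct. Lct entered the fit through the control arrays alone, so a difference was built into its selection. The brush border genes Anpep and Slc5a1 differed by -0.75 ± 0.21 and -0.46 ± 0.30, the second by -0.09 without compost rat 1. Smooth muscle markers Des, Cnn1 and Tagln differed by 0.10, 0.16 and 0.19, with summed levels of 39.8 and 30.7 in compost rats against 27.7 and 36.5 in control rats. Whether cell content differed between the groups, and whether it takes part in the B cell differences, was not tested.

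Over the 4 arrays, the genes whose profile lay closest to the median profile of the 7 were looked up among 11420 named genes. By root mean square distance in log2 units, the 5 closest were Clu (0.11), Armh4 (0.12), Lax1 (0.14), Btk (0.17) and Slc2a6 (0.17). Lax1 encodes an adaptor of lymphocyte signalling, Clu a secreted chaperone and Slc2a6 a glucose transporter of the facilitative family. Their log2 differences, from 1.23 for Slc2a6 to 1.38 for Lax1, follow from how they were found. Among the 7 themselves the distance was smallest for Cd72 (0.18) and Gpr174 (0.24) and largest for Blnk (0.88) and Cd79b (0.72).

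Promoter windows from RefSeq (build GRCr8, from 250 bases before to 50 after a start site) were held for 5 of the 9 genes. Eaf2 and Cd22 are shown because the groups did not overlap there, and Blnk and Cd37 because they did. The window of Cd79a was held too but is not shown, though the groups did not overlap for the CD79A probe in the main processing either. Capitals mark short motifs found on either strand. The motifs searched were the octamer ATTTGCAT, the PU.1 core GAGGAA, the EBF core CCCNNGGG, the E-box CAGGTG, the GC box GGGCGG and the TATA box TATAAA, each also as its reverse complement, and none of the matches in these 4 windows overlap. These motifs were chosen after the windows had been seen.
Eaf2, chr11:77465335-77465634, plus strand: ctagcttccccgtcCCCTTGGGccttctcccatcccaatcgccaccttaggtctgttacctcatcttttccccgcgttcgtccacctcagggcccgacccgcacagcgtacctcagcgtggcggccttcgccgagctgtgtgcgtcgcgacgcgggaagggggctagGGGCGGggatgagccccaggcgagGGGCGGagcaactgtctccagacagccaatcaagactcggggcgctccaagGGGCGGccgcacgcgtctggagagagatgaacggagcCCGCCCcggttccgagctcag
Cd22, chr1:95259681-95259980, minus strand: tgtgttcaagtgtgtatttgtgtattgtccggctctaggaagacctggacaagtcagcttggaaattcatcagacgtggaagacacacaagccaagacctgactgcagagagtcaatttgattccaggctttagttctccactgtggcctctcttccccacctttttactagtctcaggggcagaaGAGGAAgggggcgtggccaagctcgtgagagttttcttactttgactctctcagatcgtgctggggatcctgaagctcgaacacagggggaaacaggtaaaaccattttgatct
Blnk, chr1:249770484-249770783, minus strand: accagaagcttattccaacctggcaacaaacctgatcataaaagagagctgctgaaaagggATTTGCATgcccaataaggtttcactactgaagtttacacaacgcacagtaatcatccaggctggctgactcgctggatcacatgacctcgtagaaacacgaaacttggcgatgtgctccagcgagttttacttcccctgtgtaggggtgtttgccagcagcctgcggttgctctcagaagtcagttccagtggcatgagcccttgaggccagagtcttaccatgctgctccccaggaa
Cd37, chr1:104860735-104861034, minus strand: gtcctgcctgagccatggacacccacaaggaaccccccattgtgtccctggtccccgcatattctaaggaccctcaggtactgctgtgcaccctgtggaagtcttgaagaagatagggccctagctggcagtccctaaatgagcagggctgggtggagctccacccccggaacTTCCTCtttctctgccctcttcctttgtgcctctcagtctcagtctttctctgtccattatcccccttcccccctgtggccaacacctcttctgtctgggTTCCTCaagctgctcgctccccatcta

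The Eaf2 window held 4 GC boxes and 1 EBF core and was 67.7% G and C, against a median of 51.7% over 33469 promoters. The GC box was present in 33.1% of all promoters and the EBF core in 12.4%. Cd22 had 1 PU.1 core, at position -64 from the start site, and Cd37 had 2, in a motif that 27.6% of promoters hold. Blnk alone of the 4 had the octamer, at position -189, which 1.78% of promoters hold. The Cd79a window, not shown, held a PU.1 core and an E-box, the second of which 18.8% of promoters hold. The Cd22 window belongs to a start site 10700 bases inside the outermost start of the gene in the same assembly, and that of Cd37 to one 327 bases inside. A match is a run of letters and shows no binding.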

How the data were processed

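The authors deposited 4 scanner files of Agilent Feature Extraction 9.1.3.1, per the file headers and the submitters' processing notes, whose processed intensity was already detrended and background-subtracted on a linear scale, and a value table holding the same intensity rounded, within 0.5% of the scanner values. No scaling between arrays had been applied. Of 45018 spots per array, 1639 were controls. Outlier spots were left out, which removed 31 of 41012 gene probes. The log2 processed intensity was averaged per probe and the array's 75th percentile taken off. Probes flagged well above background on 2 or more arrays were tested with limma 3.58.1 in R 4.3.3 (lmFit, eBayes, two-sided, Benjamini-Hochberg over 28415 probes, threshold 0.05). Names were updated through the GRCr8 gene table, by accession for 11000 probes, by symbol for 5181 and by synonym for 3455, and 21376 kept the name in the file. A gene in a list stands for its brightest kept probe. Where a group was not well above background on both arrays, a fold against the dimmest probes detected is given, which is not a strict bound. In simulated data on 28415 probes, the fit recovered 0% of 200 probes shifted 2-fold or 4-fold, 56.4% of those shifted 8-fold and 74.7% shifted 16-fold. At 8-fold and 16-fold it also made 3.1 and 3.2 false calls per draw. The simulation shuffled the residual spreads over the probes, so spread was cut loose from brightness and the shares are not the power of these arrays. The genes and lists were chosen with earlier results of these data known. From each list the 3 measured genes with the largest size of difference are named, since none passed. Replicate numbers share no stated pairing. The median and the count planned over 9 genes were computed over the 7 matched by name.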

Additional observations from a re-analysis of the deposited data

How the results depend on the processing

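Under quantile or median scaling, without a filter on dim probes and with the authors' value table, limma called 0 probes, the compost rats stood on top in 5 of 7 genes, and the median log2 difference lay between 1.45 and 1.51. Each gene had 1 probe, so averaging probes changed nothing. With normexp background correction 1 probe was called and the median was 0.37. The differences that moved by more than either gap between rats of the same group were those of Cd22, Eaf2, Gpr174 and the CD79A probe. Cd72 moved from 1.45 to 0.75, by less than the gap of 1.16 between its compost rats. Requiring all 4 arrays to be well above background left 5 of the 7 genes, 3 of them with both compost rats above. Leaving out 1 rat gave 0 to 2 called probes (2 without control rat 2), a median of 1.33 to 1.90 and 5 to 6 genes with compost above, and turned Cd37 to -0.28 without compost rat 2 (0.77 without compost rat 1). Same-numbered rats did not deviate together (correlation -0.04 over 28415 probes): with the replicate number as a block 0 probes were called and the median was 1.45, since in this balanced design pairing leaves the mean difference as it is. A variance trend with robust estimation called 0. Further alternatives were chosen after seeing the data. Counting the Mzb1 and CD79A probes too put compost on top in 7 of 9 genes, with a median of 1.45. Scaling each array to the mean of the 9 epithelial markers raised the median to 1.93 and put compost on top in 6 of 7 genes. It also turned Blnk to 0.27 (-0.21 in the main scaling). The markers had a median difference of -0.25, but their mean also holds the -2.67 of Lct. A single dim probe therefore enters each of these shifts, and scaling without Lct was not tested. Values of genes outside the set without 1 rat, and the sums without the lysozyme probe or without Ccl20, were also added then. Gpr174, Cd22 and the CD79A probe lay near the detection limit in control rats.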
